A study of Mus musculus with 16 samples.

Results

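The genes described here are 10 members of the p53 pathway, namely Trp53, which encodes p53 itself, and the p53-linked genes Cdkn1a, Mdm2, Ccng1, Trp53inp1, Sesn1, Sesn2, Gadd45b, Plk2 and Plk3. They were chosen by name from a list of p53 pathway and DNA damage response genes, and all 10 had a row among the 9614 genes of the RNA-seq table. The question was whether loss of NELF-B raised p53 targets in macrophages, and how LPS and Dex changed them. Bone-marrow-derived macrophages (BMDM) came from 8-week-old male C57BL/6 mice that all carried the LysM-Cre transgene, which expresses Cre recombinase in myeloid cells. WT mice were LysM-Cre:NELF-B wt/wt and KO mice were LysM-Cre:NELF-B fl/fl, in which Cre removes exon 4 of Nelfb. NELF-B is a subunit of the negative elongation factor, which holds RNA polymerase II paused close to gene starts. The cells were left untreated (2 libraries per genotype), exposed for 1 h to 10 ng/ml LPS, a bacterial lipopolysaccharide that activates macrophages through Toll-like receptor 4 (3 per genotype), or exposed for 1 h to 10 ng/ml LPS with 100 nM Dex, the synthetic glucocorticoid dexamethasone (3 per genotype). The labels hold numbers that recur over treatments within a genotype. These were taken as mouse numbers, giving 3 mice per genotype, called A, B and C here. Mouse C of either genotype had no untreated library. The labels of WT and KO mice B share a date and those of mice C a numbering scheme, and mice A are the remaining pair.

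p53 is a transcription factor whose protein is stabilised when DNA is damaged or a cell is otherwise stressed, and it then raises a set of genes that stop the cell cycle, repair DNA, limit oxidative stress or start cell death. Mdm2 is one of these targets and encodes the ubiquitin ligase that returns p53 to a low level, so the pathway contains its own brake. Several targets also answer to signals that do not pass through p53, among them inflammatory and stress kinase signals, so a rise of one of them does not by itself report on p53. RNA-seq reads the mRNA of these genes and not the stability of the p53 protein.

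The values were the deposited log2 CPM of each gene (log2 of its counts per 1000000 reads), and the depth recovered from them ran from 25.0 to 49.7 M (units of 1000000) reads per library. The targeted gene checked the labels. Nelfb was at 6.21 and 5.92 log2 CPM in the WT untreated libraries of mice A and B and at 3.53 and 4.38 in the KO untreated libraries, and KO was below WT in every treatment, by 4.31-fold untreated, 4.04-fold with LPS and 4.01-fold with LPS + Dex (adjusted p = 0.889, 0.105 and 0.0889, limma). The counts cover all exons of Nelfb, so the deleted exon was not read on its own. An exact permutation test of 3 KO against 3 WT libraries gave p = 0.1 with LPS and with LPS + Dex (2-sided), the smallest p that 3 against 3 can give. WT untreated mouse A stood apart, with correlations of 0.83 to 0.909 with the other 15 libraries, which correlated at 0.924 to 0.993 among themselves. The 10 macrophage marker symbols name 9 genes, since Adgre1 and Emr1 are the same gene. All 9 had values, summing to 8073 to 13093 CPM in every library. Of 8 neutrophil markers 1 had values, at 5.46 to 41.5 CPM, of 4 dendritic cell markers 2 (6.64 to 25.1 CPM), of 5 stromal and endothelial markers 4 (62.7 to 208.0 CPM) and of 6 lymphocyte markers 0. In such bulk libraries fewer cells of a type and less RNA per cell cannot be told apart.

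The genes lie on 5 chromosomes in GENCODE vM21 (GRCm38, the mm10 build of the files), and the counts came from reads in their exons. Trp53 spans chr11:69580359-69591873, Ccng1 chr11:40748552-40755311, Cdkn1a chr17:29090976-29100727, Plk2 chr13:110395046-110400844, and Mdm2 chr10:117688875-117710758. Sesn1 spans chr10:41809935-41908424, Gadd45b chr10:80930073-80932204, Sesn2 chr4:132492032-132510501, Trp53inp1 chr4:11156431-11174379 and Plk3 chr4:117128655-117133963. RefSeq (GRCm38.p6) gave 11 start sites for 9 of the 10 genes. The 250 bases before the start are shown for the 5 genes that rose with LPS, read 5′ to 3′ on the strand of the gene. Capitals mark matches to the motifs searched, which may overlap.
Cdkn1a promoter (chr17:29090729-29090978, plus strand): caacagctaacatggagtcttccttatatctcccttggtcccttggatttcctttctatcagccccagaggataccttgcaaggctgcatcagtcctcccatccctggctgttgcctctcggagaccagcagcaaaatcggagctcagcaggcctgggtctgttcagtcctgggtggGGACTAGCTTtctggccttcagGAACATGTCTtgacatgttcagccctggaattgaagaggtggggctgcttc
Mdm2 promoter (chr10:117710759-117711008, minus strand): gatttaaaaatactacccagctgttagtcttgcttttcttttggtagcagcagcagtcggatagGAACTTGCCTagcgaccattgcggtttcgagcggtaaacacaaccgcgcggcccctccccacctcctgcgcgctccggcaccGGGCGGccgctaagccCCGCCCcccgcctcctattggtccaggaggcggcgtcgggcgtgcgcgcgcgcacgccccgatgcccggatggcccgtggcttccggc
Gadd45b promoter (chr10:80929841-80930090, plus strand): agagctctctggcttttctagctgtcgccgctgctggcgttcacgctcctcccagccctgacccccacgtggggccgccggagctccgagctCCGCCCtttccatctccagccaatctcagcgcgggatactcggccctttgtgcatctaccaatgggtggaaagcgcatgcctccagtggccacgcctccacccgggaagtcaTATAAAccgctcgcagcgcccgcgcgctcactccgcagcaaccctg
Plk2 promoter (chr13:110394794-110395043, plus strand): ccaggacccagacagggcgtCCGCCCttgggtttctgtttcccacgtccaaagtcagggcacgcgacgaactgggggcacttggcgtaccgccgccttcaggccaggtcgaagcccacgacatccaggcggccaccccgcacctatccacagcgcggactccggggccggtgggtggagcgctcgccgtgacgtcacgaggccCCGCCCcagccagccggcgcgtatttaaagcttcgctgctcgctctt
Plk3 promoter (chr4:117133964-117134213, minus strand): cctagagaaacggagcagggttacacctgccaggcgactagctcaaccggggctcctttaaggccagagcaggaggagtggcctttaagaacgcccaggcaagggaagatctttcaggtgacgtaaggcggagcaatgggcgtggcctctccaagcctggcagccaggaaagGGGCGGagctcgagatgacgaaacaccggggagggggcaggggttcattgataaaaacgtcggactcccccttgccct
Each motif was searched on both strands. TATAAA, the TATA box, was found for 2 genes, and 12.4% of all 32851 promoter windows of this length hold it. In Gadd45b it lay 46 bases before the start. In Trp53 it lay 248 bases before the start, at the far end of the window and on the opposite strand. GGGCGG, the GC box, was present in 7 of the 9 genes against 32.7% of all windows. A 10-base p53 consensus was present in 5 genes against 7.13% of all windows. Cdkn1a, shown at the more upstream of its start sites, held 2 such matches, 73 and 51 bases before the start, and Mdm2 held 1. The window of the other Cdkn1a start site, not shown, held no p53 match. It held the GC boxes counted for Cdkn1a. Trp53, Ccng1 and Sesn1 held the other 3 matches. TGANTCA, the AP-1 motif, the NF-kB motif and the glucocorticoid response element were in 0 of the 11 windows, against 6.75%, 7.25% and 0.387% of all windows. These matches are descriptions of the letters in a short window. The gene counts take a match in any window of a gene, while the shares are of single windows.

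To compare levels between genes, CPM were divided by the merged exon length in kb. In untreated WT cells Ccng1, a cyclin G, was at 47.3 ± 21.7 CPM per kb (SD, n = 2), Cdkn1a at 41.0 ± 0.884 and Sesn1 at 34.7 ± 17.3, and these neighbours did not differ beyond their spread. Gadd45b at 19.1 ± 2.58 and Mdm2 at 18.9 ± 2.64 came next and overlapped with Sesn1 within the spread, followed by Trp53 at 13.1 ± 1.65. Plk2 at 9.05 ± 0.102, Sesn2 at 8.99 ± 0.678 and Trp53inp1 at 5.84 ± 3.39 did not differ from each other beyond their spread, and Plk3 at 4.08 ± 0.0539 lay within the spread of Trp53inp1. With LPS the order per length in WT cells was led by Cdkn1a at 116.1 ± 21.0 CPM per kb (n = 3), Plk2 at 91.3 ± 12.7, Gadd45b at 74.4 ± 16.04 and Mdm2 at 58.1 ± 3.68. Each of these 4 overlapped with the next within its spread.

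**Figure D1:**
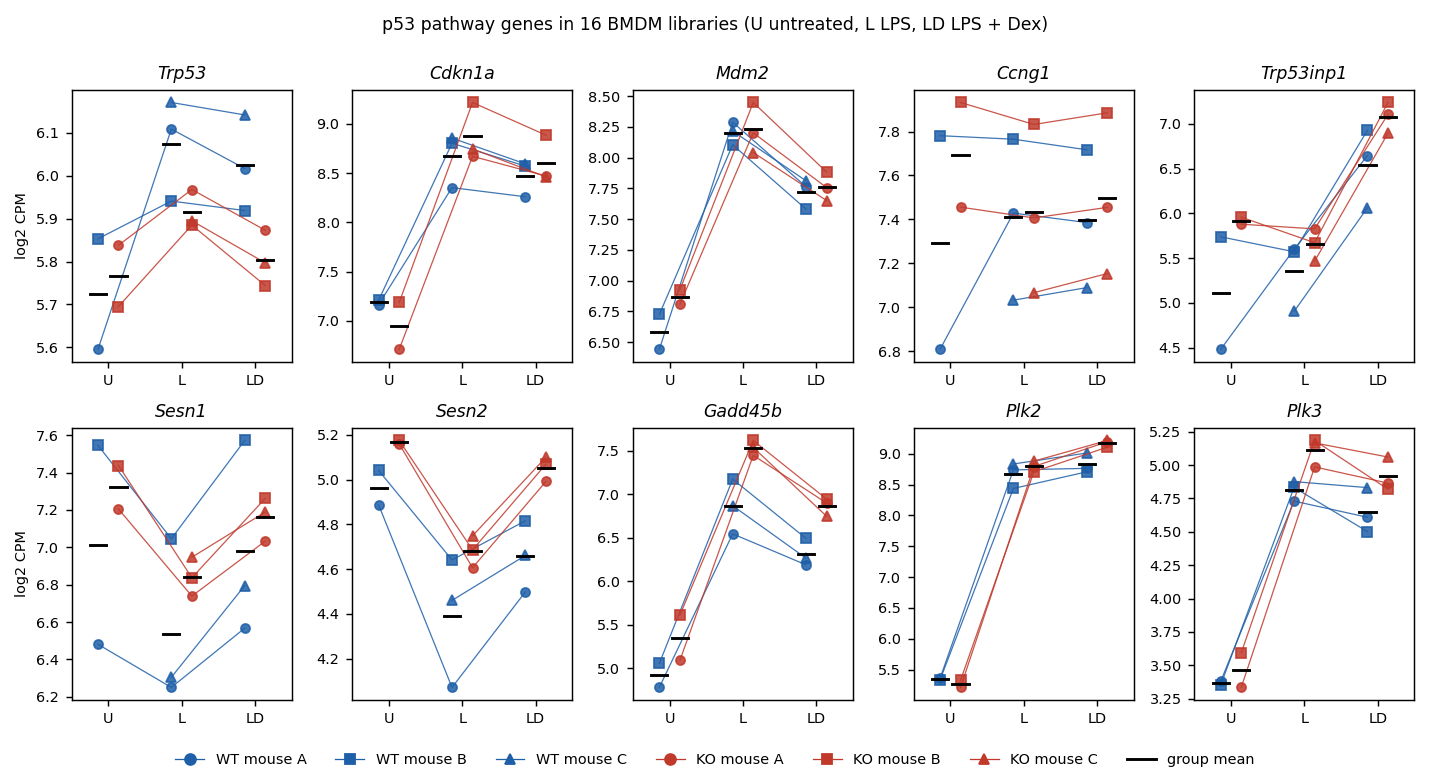
Each panel shows 1 gene, with log2 CPM on the vertical axis (its own scale in each panel) and the treatments along the horizontal axis (U, untreated; L, LPS; LD, LPS with Dex). Points are libraries, lines join the libraries of 1 mouse and black bars are group means. Cdkn1a, Mdm2, Gadd45b, Plk2 and Plk3 were higher with LPS in both genotypes, Trp53inp1 was higher in LD than in L in every mouse, and WT untreated mouse A was the lowest library for Trp53, Ccng1 and Trp53inp1.

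LPS raised 5 of the 10 genes in both genotypes and lowered 0 by the thresholds used (limma, adjusted p under 0.1 and over 1.5-fold). The background was 2.81% of all genes called higher and 0.759% called lower in WT, and 3.56% and 1.72% in KO. The 5 genes were Cdkn1a, Mdm2, Gadd45b, Plk2 and Plk3, while Trp53 itself was not called. The median change over the 10 genes was 0.90 on the log2 scale in WT and 0.76 in KO, against 0.02 and -0.01 over all genes. For LPS, the share of all genes without overlap between treatments, or with the same direction in every mouse, was not counted.

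Plk2, a polo-like kinase linked to centriole duplication and stress signalling, had the largest change of the 10 genes. It was at 5.36 and 5.33 log2 CPM in the untreated WT libraries of mice A and B, and at 8.74, 8.44 and 8.84 with LPS in mice A, B and C. In KO it was at 5.21 and 5.33 untreated and at 8.79, 8.71 and 8.88 with LPS. The groups lay far apart, with a log2 fold change of 3.33 ± 0.173 (SE) in WT (adjusted p = 4.2e-05, limma) and 3.53 ± 0.0843 in KO (adjusted p = 2.54e-07, limma), that is 10.0-fold and 11.5-fold.

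Gadd45b, a stress-induced regulator of p38 and JNK kinase signalling, was at 4.78 and 5.06 log2 CPM in untreated WT cells and at 6.54, 7.17 and 6.87 with LPS. In KO it was at 5.09 and 5.61 untreated and at 7.45, 7.62 and 7.54 with LPS. No LPS library overlapped with an untreated one, and the log2 fold change was 1.94 ± 0.213 in WT (adjusted p = 0.00236, limma) and 2.18 ± 0.149 in KO (adjusted p = 7.62e-05, limma).

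Cdkn1a encodes p21, the cyclin-dependent kinase inhibitor through which p53 arrests the cell cycle. It was at 7.17 and 7.21 log2 CPM in untreated WT libraries and at 8.35, 8.80 and 8.86 with LPS, and in KO at 6.71 and 7.19 untreated and 8.67, 9.22 and 8.75 with LPS. The log2 fold change was 1.48 ± 0.198 in WT (adjusted p = 0.00648, limma) and 1.93 ± 0.218 in KO (adjusted p = 0.00127, limma). With the mice A and B alone the WT difference was 1.39 and missed the threshold (adjusted p = 0.104, limma).

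Mdm2 was at 6.44 and 6.72 log2 CPM in untreated WT libraries and at 8.29, 8.11 and 8.22 with LPS, and in KO at 6.81 and 6.92 untreated and 8.20, 8.45 and 8.04 with LPS. Its log2 fold change was 1.62 ± 0.155 in WT (adjusted p = 0.00117, limma) and 1.37 ± 0.129 in KO (adjusted p = 0.000441, limma). Plk3, a polo-like kinase that responds to stress, had the lowest mean of the 10 genes per length in untreated WT cells and rose by 1.45 ± 0.154 in WT (adjusted p = 0.00208, limma) and by 1.65 ± 0.12 in KO (adjusted p = 0.000107, limma). Its libraries ran from 3.33 to 3.59 log2 CPM untreated and from 4.73 to 5.18 with LPS over both genotypes.

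The sestrins, which restrain mTORC1 and oxidative stress, lay on the other side of 0. Sesn2 was at 4.89 and 5.04 log2 CPM in untreated WT libraries and at 4.07, 4.64 and 4.46 with LPS, and in KO at 5.16 and 5.17 untreated and at 4.61, 4.69 and 4.75 with LPS. LPS libraries lay below the untreated ones of their genotype without overlap, with log2 differences of -0.57 ± 0.202 in WT (adjusted p = 0.295, limma) and -0.49 ± 0.0791 in KO (adjusted p = 0.0092, limma). Sesn1 differed by -0.48 ± 0.423 in WT (adjusted p = 0.534, limma) and -0.48 ± 0.11 in KO (adjusted p = 0.0462, limma). The KO differences passed the adjusted p and stayed under 1.5-fold, so neither sestrin counted as changed, although both were lower with LPS in 4 of 4 mice. With the replicate block (mouse as a term) over all 16 libraries Sesn2 was called lower in WT (-0.59, 1.51-fold, adjusted p = 0.00566, limma), as were 9.11% of all genes, and over the 8 WT libraries it was not (adjusted p = 0.133, limma).

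Trp53 was at 5.59 and 5.85 log2 CPM in untreated WT cells, 6.11, 5.94 and 6.17 with LPS, 5.84 and 5.70 in untreated KO cells and 5.97, 5.88 and 5.89 with LPS. Its differences of 0.35 ± 0.154 in WT (adjusted p = 0.37, limma) and 0.15 ± 0.0804 in KO (adjusted p = 0.529, limma) missed the threshold. Ccng1 and Trp53inp1, a cell death and autophagy regulator, were not called in either genotype. Both were higher with LPS in WT mouse A only, whose untreated library stood apart, by 0.62 for Ccng1 and 1.12 for Trp53inp1, and lower in the other 3 mice, by at most 0.1 and 0.286. With the replicate block and without that library the WT differences were -0.03 for Ccng1 and -0.08 for Trp53inp1. The library of mouse B alone then stood for untreated WT cells. Without the WT untreated library of mouse A, without a block, the values were -0.37 and -0.38.

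The other genes of the pathway came from lists chosen by name. Of 29 other p53 targets, 4 rose and 0 fell in WT, and 6 rose and 0 fell in KO, with list medians of 0.01 and -0.04. Those that rose in WT were Gdf15, a stress cytokine, by 3.14, Btg2, an antiproliferative gene, by 2.85, Pmaip1 (Noxa), a pro-death BCL-2 family member, by 2.39, and Rap2b, a small GTPase, by 1.14 on the log2 scale (adjusted p from 0.000945 to 0.00791, limma). The 5 with the largest changes in KO were Btg2, which rose by 3.27, Gdf15 by 3.26, Pmaip1 by 2.52, Rap2b by 1.43 and Bbc3 (Puma), also pro-death, by 0.76 (adjusted p from 3.21e-06 to 0.0715, limma). Of 7 relatives of the members, Gadd45a rose by 2.27 and Ccng2 by 1.81 in WT, and by 2.45 and 1.83 in KO, while Gadd45g fell by 2.02 in WT and by 1.18 in KO (adjusted p from 0.000797 to 0.088, limma). Gadd45g therefore moved opposite to Gadd45a and Gadd45b. The 2 untreated WT libraries lay far apart for Gadd45g (3.745 and 5.514 log2 CPM). Of 11 p53 regulators 0 were called in WT or KO. The smallest unadjusted p were those of Chek1 (0.78) and Atm (0.95), DNA damage kinases, in WT and of Ppm1d (-0.39), a phosphatase that dampens p53, and Chek1 (-0.39) in KO (adjusted p from 0.106 to 0.859, limma). Of 21 DNA damage response and repair genes 0 were called, with Rad9a at -0.73 and Rad17 at 0.44 in WT and Lig4 at -0.45 and Rad9a at -0.34 in KO (adjusted p from 0.135 to 0.38, limma).

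**Figure D2:**
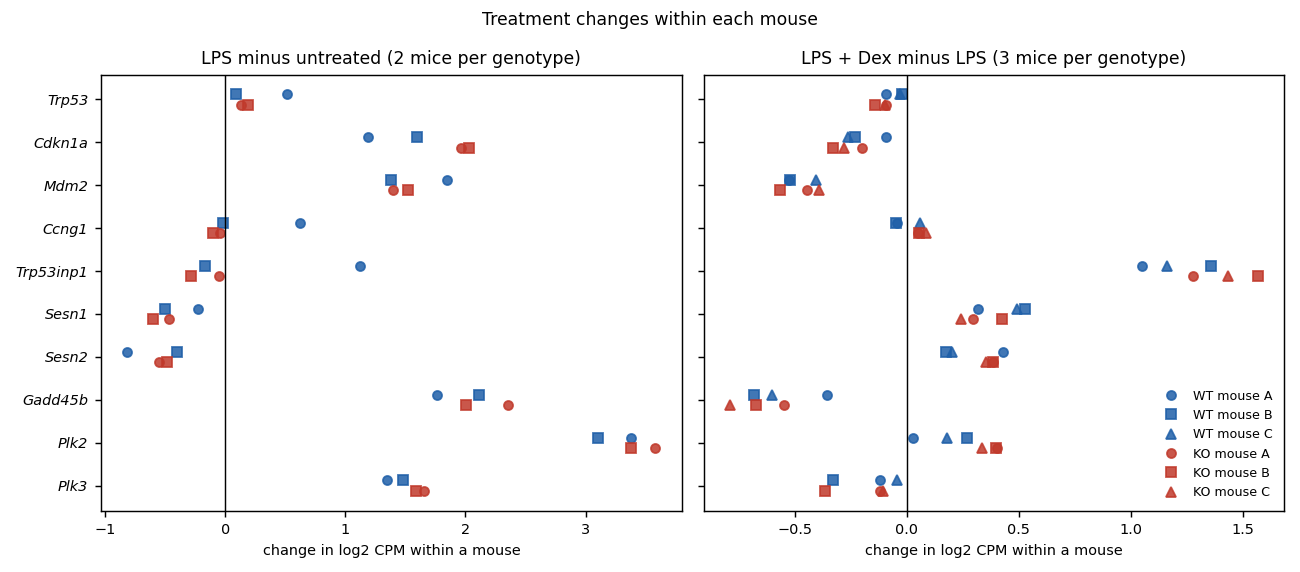
Each symbol is the change in log2 CPM within 1 mouse, from untreated to LPS on the left (2 mice per genotype) and from LPS to LPS + Dex on the right (3 mice per genotype), with genes on the vertical axis. With LPS, Plk2 was higher by 3.10 to 3.58 in the 4 mice, and with Dex, Trp53inp1 was higher by 1.05 to 1.57 in the 6 mice.

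Dex added to LPS gave 2 calls among the 10 genes in KO, Trp53inp1 higher and Gadd45b lower, against 2.11% of all genes, and 0 in WT against 0.27% (limma, adjusted p under 0.1 and over 1.3-fold). At an unadjusted p under 0.05, 3 genes passed in WT (Trp53inp1, Mdm2 and Gadd45b) against 2.54% of all genes. LPS and LPS + Dex libraries of the same mouse deviated together, with correlations of 0.781 to 0.939, so fits with the replicate block are given beside these values. Over the 8 libraries of a genotype the blocked fit called 0 of the 10 genes in WT against 0.489% of all genes, and 3 in KO against 5.14%. Over all 16 libraries it called 4 in WT against 2.59% and 3 in KO against 3.02%. Over the 6 treated libraries of a genotype, a fit chosen after the data were seen, it called 4 in WT against 4.56% and 3 in KO against 5.28%. The WT calls therefore depended on which libraries entered the blocked fit.

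Trp53inp1 was at 5.598, 5.57 and 4.90 log2 CPM with LPS and at 6.65, 6.93 and 6.06 with LPS + Dex in mice A, B and C of WT. In KO it was at 5.83, 5.67 and 5.46 with LPS and at 7.11, 7.24 and 6.90 with LPS + Dex. Every LPS + Dex library lay above every LPS library, WT and KO alike. The share of all genes with such separation by Dex was not counted, here and for the genes below. The log2 fold change was 1.43 ± 0.119 in KO (2.69-fold, adjusted p = 0.00133, limma) and 1.19 ± 0.375 in WT (2.28-fold, adjusted p = 0.973, limma), and with the replicate block over 6 libraries the adjusted p was 7.9e-08 in KO and 6.48e-08 in WT. In the blocked fit over 8 libraries Trp53inp1 was not called in WT (adjusted p = 0.283, limma). The WT fit took in all 8 libraries of the genotype, among them the untreated libraries of mouse A at 4.48 and mouse B at 5.74.

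Gadd45b was at 6.54, 7.17 and 6.87 log2 CPM with LPS and at 6.19, 6.49 and 6.26 with LPS + Dex in WT, and at 7.45, 7.62 and 7.54 and then 6.90, 6.94 and 6.75 in KO. The LPS + Dex libraries lay below the LPS libraries without overlap in each genotype. The difference was -0.67 ± 0.133 in KO (adjusted p = 0.0643, limma) and -0.55 ± 0.19 in WT (adjusted p = 1, limma), and with the replicate block over 6 libraries the adjusted p was 6.67e-06 in KO and 3.02e-05 in WT. In the blocked fit over 8 libraries the WT difference was not called (adjusted p = 0.249, limma). Without the block, leaving out any 1 of the 6 LPS or LPS + Dex libraries of KO ended the call, with adjusted p from 0.136 to 0.219 (limma).

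Mdm2 was at 8.29, 8.11 and 8.22 log2 CPM with LPS and at 7.76, 7.58 and 7.81 with LPS + Dex in WT, and at 8.20, 8.45 and 8.04 and then 7.76, 7.88 and 7.65 in KO. In each genotype the LPS + Dex libraries were lower without overlap. The differences of -0.48 ± 0.139 in WT (adjusted p = 0.766, limma) and -0.47 ± 0.115 in KO (adjusted p = 0.148, limma) passed with the replicate block over 6 libraries (adjusted p = 2.25e-06 and 3.36e-05, limma). With the block over 8 libraries they passed in KO (adjusted p = 5.44e-05, limma) and not in WT (adjusted p = 0.473, limma).

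Among the remaining members the Dex differences were smaller. Sesn1 was at 6.25, 7.05 and 6.30 log2 CPM with LPS in WT and at 6.57, 7.57 and 6.79 with LPS + Dex, so mouse B stood above the others in both treatments. Its differences were 0.44 in WT, called with the replicate block over 6 libraries (adjusted p = 2.68e-05, limma) and not over 8 (adjusted p = 0.289, limma), and 0.32 in KO (adjusted p = 0.317, limma, and 0.000623 with that block, under 1.3-fold). Sesn2 at 0.37 (adjusted p = 0.0533) and Plk2 at 0.38 (adjusted p = 0.0647) passed the adjusted p in KO with limma and lay just under 1.3-fold, at 1.295-fold and 1.2995-fold. In WT their values were 0.27 and 0.16. Cdkn1a differed by -0.20 in WT and -0.27 in KO, Plk3 by -0.17 and -0.20, Trp53 by -0.05 and -0.11 and Ccng1 by -0.01 and 0.06, and none of these reached 1.3-fold. In direction, Trp53inp1, Sesn1, Sesn2 and Plk2 were higher with Dex in 6 of 6 mice, as were 9.16% of all genes, and Trp53, Cdkn1a, Mdm2, Gadd45b and Plk3 were lower in 6 of 6 mice, as were 10.4% of all genes. Plk2 and the sestrins were thus on the same side of 0 with Dex, although Plk2 had risen with LPS and the sestrins were lower with it.

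In the lists, Dex called 0 of 11 p53 regulators, 0 of 29 other p53 targets, 0 of 7 relatives and 0 of 21 DNA damage response and repair genes in WT. The values with the smallest unadjusted p there were Ppm1d at 0.63 and Rchy1, a p53 ubiquitin ligase, at -0.22, then Gdf15 at -1.01 and Rap2b at -0.55, Gadd45a at -1.73 and Cdkn1b (p27) at 0.55, and Rad17 at -0.15 and Lig4 at 0.20 (adjusted p from 0.425 to 1, limma). In KO, Ppm1d rose by 0.62 as the only regulator, Ddit4 (REDD1), an mTORC1 inhibitor, rose by 1.70, and Gdf15 fell by 1.10, Rap2b by 0.57 and Btg2 by 0.55 among the other targets. Cdkn1b rose by 0.70 and Gadd45a fell by 1.66 among the relatives (adjusted p of these 7 genes from 0.0181 to 0.092, limma). Ddit4 and Btg2 were not called in WT but moved the same way there. From LPS to LPS + Dex their WT means went from 0.64 to 2.26 and from 7.76 to 7.22 log2 CPM. Of the repair genes 0 were called in KO, with Nbn at -0.18 and Xrcc6 at 0.14 (adjusted p = 0.889 and 1, limma).

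No difference between KO and WT cells passed the test for any of the 10 genes in any treatment. Untreated, with LPS and with LPS + Dex, 0 of the 10 genes and 0% of all 9614 genes passed an adjusted p under 0.05 and 1.5-fold with limma. On recovered reads (limma-voom) 0, 1 and 3 of all genes passed and 0 of the 10. WT and KO libraries of the same letter deviated together, with correlations of 0.443 to 0.76 with LPS and LPS + Dex. With the letter as a block, 12 genes passed with LPS and 48 with LPS + Dex, among them 0 of the 10. The unblocked test also missed Nelfb, 4.04-fold lower in KO with LPS, so a miss does not show that a difference was absent. At an unadjusted p under 0.05, 0 of the 10 genes passed untreated against 0.385% of all genes, 2 with LPS against 8.44%, and 5 with LPS + Dex against 11.3%. These 5 were Gadd45b, Sesn2, Plk2 and Trp53inp1, higher in KO, and Trp53, lower in KO. The median difference of the 10 genes was 0.24 untreated, 0.25 with LPS and 0.23 with LPS + Dex, against 0.02, 0.00117 and 0.01 over all genes. Libraries of the treatments came from the same mice, so these are not 3 independent values. The 9 macrophage markers had median differences of 0.44, 0.23 and 0.29, 3 of 9 were higher in KO at an unadjusted p under 0.05 with LPS and 3 of 9 with LPS + Dex, and their summed level with LPS was 9874 to 13061 CPM in WT and 12928 to 13093 CPM in KO. Their part in the differences of the 10 genes was not tested. Within pairs of libraries of the same letter and treatment, KO was above WT in 8 of 8 pairs for Gadd45b (by 0.31 to 0.90), Trp53inp1 (by 0.10 to 1.40) and Sesn2 (by 0.045 to 0.54), as were 7.72% of all genes. Trp53 was below in 7 of 8, and the share of all genes below in as many pairs was not counted. The 8 pairs reuse the same mice.

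Gadd45b was the only one of the 10 genes with KO above WT without overlap in both LPS and LPS + Dex. With LPS it was at 6.54, 7.17 and 6.87 log2 CPM in WT and at 7.45, 7.62 and 7.54 in KO, and with LPS + Dex at 6.19, 6.49 and 6.26 in WT and at 6.90, 6.94 and 6.75 in KO. Among all genes 3.77% showed this. The log2 difference was 0.43 ± 0.311 untreated (adjusted p = 0.889), 0.67 ± 0.161 with LPS (1.59-fold, adjusted p = 0.254) and 0.55 ± 0.109 with LPS + Dex (1.46-fold, adjusted p = 0.174), all with limma. With mice of the same letter as a block, adjusted p was 0.088 with LPS and 0.0579 with LPS + Dex. It passed the test with LPS + Dex only when WT mouse B was left out (0.64, adjusted p = 0.0477, limma).

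Plk3 was at 4.73, 4.83 and 4.88 log2 CPM with LPS in WT and at 4.99, 5.18 and 5.17 in KO, without overlap, a difference of 0.30 ± 0.1 (adjusted p = 0.415, limma). With LPS, KO lay above WT without overlap for 2 of the 10 genes, Gadd45b and Plk3, against 5.91% of all genes, and below it for 0, against 7.82%. With LPS + Dex, KO lay above WT without overlap for Gadd45b, Sesn2 and Plk2, against 8.93% of all genes, and below it for Trp53, against 8.83%. Sesn2 was at 4.498, 4.82 and 4.66 in WT and at 4.99, 5.07 and 5.10 in KO (0.40 ± 0.105, adjusted p = 0.222, limma). Plk2 was at 8.76, 8.71 and 9.01 in WT and at 9.20, 9.11 and 9.22 in KO (0.34 ± 0.11, adjusted p = 0.289, limma). Trp53 was at 6.02, 5.92 and 6.14 in WT and at 5.87, 5.74 and 5.80 in KO (-0.22 ± 0.0908, adjusted p = 0.422, limma).

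Trp53inp1 in untreated cells was at 4.48 and 5.74 log2 CPM in WT and at 5.88 and 5.96 in KO. Its difference of 0.81 ± 0.467 was the widest of the 10 genes (adjusted p = 0.889, limma). Without WT mouse A, the library that stood apart, it was 0.18. When WT mouse B was left out, so that this library alone stood for WT, Trp53inp1 was at 1.44, Ccng1 at 0.89 and Sesn1 at 0.84. When mouse A was left out instead, Ccng1 was at -0.087 and Sesn1 at -0.22. With LPS + Dex, Trp53inp1 was 0.53 ± 0.219 higher in KO (adjusted p = 0.422, limma), and the WT library of mouse B at 6.93 overlapped with the KO library of mouse C at 6.90. The classical targets Cdkn1a and Mdm2 differed by -0.24 and 0.28 untreated, 0.21 and 0.03 with LPS, and 0.13 and 0.05 with LPS + Dex. The 95% confidence interval of the Mdm2 difference ran from -0.27 to 0.33 with LPS, and that of Cdkn1a from -0.25 to 0.66. Sesn1 (0.31, 0.31 and 0.18) and Ccng1 (0.40, 0.03 and 0.10) were also not called.

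**Figure D3:**
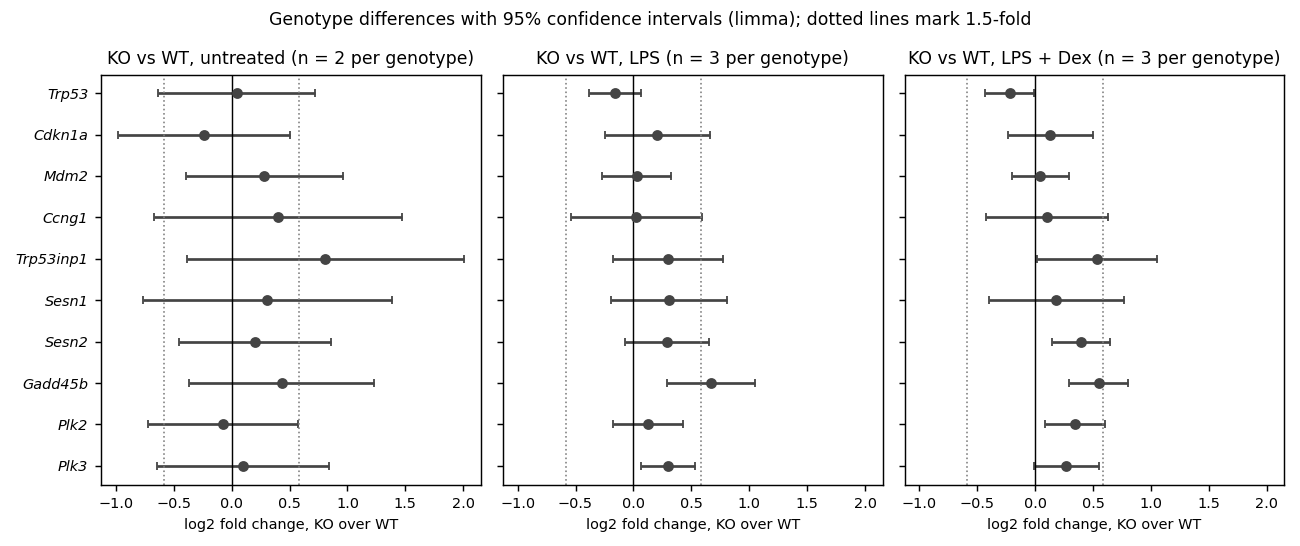
Points are log2 fold changes of KO over WT from limma for the 10 genes in untreated, LPS and LPS + Dex cells, and bars are 95% confidence intervals. Dotted lines mark 1.5-fold. The intervals of Gadd45b with LPS (0.29 to 1.05) and LPS + Dex (0.29 to 0.81) lay above 0, and those of Mdm2 held 0 in every treatment. Those of Plk3 with LPS and of Plk2, Sesn2 and Trp53inp1 with LPS + Dex also lay above 0. That of Trp53 with LPS + Dex lay below 0. The intervals are not adjusted for the number of genes tested.

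In the lists 0 genes were called between genotypes in any treatment. At an unadjusted p under 0.05, the DNA damage response and repair genes were lower in KO in 7 of 21 cases with LPS and 7 of 21 with LPS + Dex, against 5.07% and 5.96% of all genes. Brca1, which acts in homologous recombination, was at -1.20 with LPS and at -1.11 with LPS + Dex (adjusted p = 0.246 and 0.174, limma), and untreated Clspn, a checkpoint adaptor, was at -0.72. Chek1 was at -1.13 and Chek2 at -0.40 with LPS and at -0.995 and -0.36 with LPS + Dex. The 6 proliferation markers moved with these genes. Their differences were below 0 in 6 of 6 cases and passed an unadjusted p under 0.05 in 5 of 6 with either treatment, with medians of -1.001 and -1.09, and their summed level was 323.2 to 489.1 CPM in WT and 236.7 to 309.6 CPM in KO with LPS. Their part in the differences of the repair genes was not tested.

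Of the other p53 targets, Btg2 was 0.88 higher in KO with LPS and with LPS + Dex (adjusted p = 0.246 and 0.192, limma), and Gtse1, a cell-cycle gene that binds p53, was at -0.94 and -0.96. Of the relatives, Cdkn1b was at 0.43 and 0.58 and Plk4, the centriole kinase, at -0.92 and -1.001 with LPS and LPS + Dex (adjusted p from 0.186 to 0.254, limma). Untreated, the values with the smallest unadjusted p were Atm at 0.92 and Hipk2 at 0.62, Pltp at -0.58 and Bax, the pro-death BCL-2 family member, at -0.91, and Ccng2 at 0.52 and Cdkn1b at 0.47, all with adjusted p = 0.889 (limma). The 2 untreated WT libraries lay far apart for Atm (2.403 and 4.283 log2 CPM), Hipk2 (5.044 and 6.303) and Bax (7.125 and 8.364). They lay closer together for Pltp, Ccng2 and Cdkn1b.

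Whether genotype changed the response itself was tested over all 16 libraries. For LPS and for Dex, 0 of the 10 genes and 0% of all genes passed an adjusted p under 0.1 with limma. At an unadjusted p under 0.05, 221 of all genes passed for LPS and 0 for Dex, with 0 of the 10 genes in either, and limma-voom called 0 genes in both. The LPS response of Cdkn1a was 0.45 ± 0.307 larger in KO (adjusted p = 0.69, limma). With the replicate block over all 16 libraries it was 0.59 ± 0.133 larger and was not called (adjusted p = 0.414, limma). With the replicate block and without the untreated library of WT mouse A, it was 0.42 larger. This fit was chosen after the data were seen, and in it the library of mouse B alone stood for untreated WT cells. Within mice the LPS change of Cdkn1a was 1.19 (mouse A) and 1.59 (mouse B) in WT against 1.96 and 2.03 in KO. Without WT mouse B, Trp53 was at -0.40 and Trp53inp1 at -1.04, in a fit where the library that stood apart alone stood for untreated WT cells. The Dex response of Trp53inp1 differed by 0.24 ± 0.421 and that of Plk2 by 0.22 ± 0.166 (adjusted p = 1 for both, limma). With the replicate block, fitted to 12 libraries with the untreated ones left out, adjusted p was 0.654 and 0.372 (limma), and over all 16 libraries it was 1 for both. In the lists the smallest unadjusted p for LPS belonged to Chek1 (-1.17) and Atm (-0.996), Slc19a2 (-0.53) and Polk (-0.68), Plk4 (-0.69) and Gadd45g (0.84), and Hus1 (-0.78) and Lig4 (-0.57), with adjusted p = 0.69 (limma). For Dex they belonged to Rchy1 (0.08) and Atm (0.28), Fbxw7 (0.18) and Ercc5 (0.12), Cdkn1b (0.15) and Trp53inp2 (0.06), and Prkdc (0.31) and Rad17 (0.16), with adjusted p = 1 (limma). For LPS, the 2 untreated WT libraries lay far apart for Atm (2.403 and 4.283 log2 CPM), Gadd45g (3.745 and 5.514) and Chek1 (0.692 and 1.839). They also did for Polk (2.521 and 3.554) and Hus1 (2.544 and 3.429). They lay close together for Plk4 (3.002 and 3.119).

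Over the 16 libraries each of the 10 genes was set beside the gene outside the 10 whose log2 CPM had the highest Pearson r with its own. For the 5 genes that rose with LPS these were Tnfsf9 for Plk2 (r = 0.993), Socs3 for Plk3 (0.988), Zswim4 for Mdm2 (0.985), Irf1 for Gadd45b (0.984) and Il6 for Cdkn1a (0.98). Trp53inp1, which Dex raised in KO, went with Hs6st1 (0.98), Ccng1 with Ppp2r1b (0.97), Trp53 with Car13 (0.966), Sesn1 with Akap8 (0.895) and Sesn2 with Ap3m2 (0.876). The libraries share treatments, mice and depth, so these values describe likeness in this set of libraries.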

How the data were processed

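RNA-seq of BMDM was analysed in 16 libraries from 3 WT and 3 KO mice. The authors enriched polyA RNA, sequenced read pairs on a HiSeq2500, aligned them to mm10 in CLC Genomic Workbench, took the uniquely mapped reads of each gene's exons, and normalised these counts with the weighted trimmed mean of edgeR. They deposited log2 CPM for 9614 genes (the filter that left these genes is not given in the sources used here) beside p-values and FDR values of their own comparisons, which were not used. The submitters' processing notes name CASAVA 1.8, FastQC and edgeR. Per-sample columns left unused numbered 0.

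Groups, and the numbers taken as mouse numbers, came from the sample labels. Values on the deposited log2 scale were tested with limma 3.58.1 (lmFit, eBayes with a trend) in R 4.3.3, with Benjamini-Hochberg adjustment over 9614 genes, since the values are not counts. KO against WT used only the libraries of that treatment (adjusted p under 0.05 and over 1.5-fold). LPS against untreated (adjusted p under 0.1, over 1.5-fold) and LPS + Dex against LPS (adjusted p under 0.1, over 1.3-fold) used the 8 libraries of 1 genotype, and differences between genotypes in a response used all 16 (adjusted p under 0.1). Log2 differences have standard errors from limma. Whole reads came out within 0.15 reads for 100% of values under 3 CPM, which gave depths of 25.0 to 49.7 M reads (in units of 1000000). A count of 3 reads corresponds to 0.0653 to 0.136 CPM, and such limits cover counting error only.

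Same-numbered libraries were taken as coming from the same mouse, although the labels do not say what the number is. Their deviations from group means correlated at 0.781 to 0.939 between LPS and LPS + Dex, and at 0.186 to 0.822 between untreated and LPS, so blocked fits are given beside the results whose calls they change. Unblocked p-values of KO against WT within 1 treatment rest on the spread between mice. Unblocked treatment and response fits counted libraries of the same mouse as independent, so their p-values mix spread between and within mice. Fits with the replicate block rest on the spread left within mice. The genes named were the 10 members in every comparison, Nelfb, for each list up to 5 called genes per direction with the largest change or else the 2 with the smallest unadjusted p, and the gene most like each member. Values of 1 gene that this rule selects from the repair list are not reported here. Members and lists were chosen with earlier results of these data known. Alternatives were other scalings (median gene centring, log2(CPM + 1)), a filter on mean log2 CPM above 1, no variance trend, limma-voom on recovered reads, other sets of libraries, blocked fits and leaving out each library. For genotype differences in a response, all libraries of 1 mouse were left out together. The fits were tested on simulated data. Promoter windows came from RefSeq GRCm38.p6 and gene positions from GENCODE vM21. Figures and tables used Python 3.11.15, numpy 2.4.6, pandas 2.3.3, scipy 1.17.1 and matplotlib 3.10.9.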

Additional observations from a re-analysis of the deposited data

How the results depend on the processing

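Scaling, the variance trend, the filter on low values, log2(CPM + 1) and limma-voom left the number of the 10 genes called within 1.5 times in every comparison. Of 1390 values of single genes under an alternative, 1318 kept their direction and their side of the threshold, 9 lost the call, 23 gained it and 40 turned direction, and none of these 40 was called. With the replicate block (paired by mouse), LPS + Dex against LPS called 0 of the 10 genes in WT over 8 libraries, 4 over all 16 and 4 over 6. Over all 16 it called 6 for LPS in WT, with Sesn2 as the sixth. Over all genes the replicate block called 432 against 343 for LPS in WT, 678 against 507 in KO, and for Dex 47 against 26 in WT and 494 against 203 in KO (438 and 508 over 6 libraries). For KO against WT, where 0 of all genes were called untreated, with LPS and with LPS + Dex, mice of the same letter as a block gave 3, 12 and 48 and all 16 libraries 1, 14 and 11 (2, 31 and 51 with mouse as a random effect). With all 16 libraries 880 genes were called for LPS in WT (2008 with the replicate block), 95 for Dex in WT (249) and 123 in KO. With mice A and B alone these were 145, 0 and 49. Of the 10 genes, in KO the Dex count was 1 with mice A and B alone and 1 over all 16 libraries. At an unadjusted p under 0.05 and over 1.5-fold, 1 of the 10 genes passed for KO against WT with LPS, and at an unadjusted p under 0.01 and over 1.3-fold 1 passed for Dex in WT. Replicate block and no untreated library of WT mouse A left the library of mouse B alone for untreated WT cells. For the genotype difference in the LPS response Trp53 was then at 0.056, Mdm2 at 0.081 and Sesn2 at -0.070. The LPS change in WT was then -0.034 for Ccng1 and -0.083 for Trp53inp1. Median gene centring put the difference of Sesn1 at 0.013.

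Leaving out 1 library at a time, counts of the 10 genes are given only for fits with at least 2 libraries in each group compared. The number of the 10 genes called ran from 0 to 1 for KO against WT with LPS + Dex. It ran from 1 to 3 for Dex in KO. Without the untreated library of WT mouse B, leaving only the library that stands apart, 3905 of all genes were called for KO against WT and 4313 for LPS in WT. Without any library of WT mouse B, 4503 were called for the difference in the LPS response. The ranges of values that turned direction when 1 library was left out were, for KO against WT untreated, -0.086 to 0.17 (Trp53), -0.087 to 0.89 (Ccng1), -0.22 to 0.84 (Sesn1) and -0.032 to 0.23 (Plk3). With LPS they were -0.081 to 0.12 (Mdm2) and -0.17 to 0.21 (Ccng1), and with LPS + Dex -0.0083 to 0.20 (Cdkn1a), -0.024 to 0.10 (Mdm2), -0.093 to 0.27 (Ccng1) and -0.022 to 0.48 (Sesn1). For LPS in WT they were -0.37 to 0.60 (Ccng1), -0.38 to 0.88 (Trp53inp1) and -1.01 to 0.052 (Sesn1). For Dex they were -0.11 to 0.0058 (Trp53) and -0.20 to 0.17 (Ccng1) in WT and -0.13 to 0.26 (Ccng1) in KO. Genotype differences in a response were refitted without all libraries of 1 mouse instead. For the LPS response the ranges were -0.68 to 0.12 (Ccng1), -1.04 to 0.24 (Trp53inp1) and -0.28 to 0.39 (Sesn1). For the Dex response they were -0.021 to 0.066 (Mdm2) and -0.11 to 0.052 (Plk3). The cause of these changes was not tested. Untreated groups held 2 libraries each, which limits the precision of their differences.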
